A study of Homo sapiens with 2 samples.

Results

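The translocon and N-glycosylation genes carry a new secretory protein into the endoplasmic reticulum (ER), cut off its signal peptide and attach its first sugar chains. The group was taken as a list of 40 named genes, chosen for function and not by a cut on their values. Earlier results of these data were known when the list was chosen. All 40 names were found in both libraries, among 26254 gene names in all, and 39 of them had a mean level of at least 1 FPKM, as did 11115 names in the whole series. FPKM, the number of sequenced fragments scaled by transcript length and by library depth, is the deposited measure of transcript level. The RNA came from PLC, a human line of liver cancer cells, in 2 conditions. EV cells, with the genotype given as WT, carried the empty pCDH vector, and PRSS35 cells stably expressed human PRSS35, a secreted protease, from the same vector. Both lines were infected with lentivirus and selected with puromycin, and the labels list no other treatment. There was 1 library per condition, so no difference has a replicate check, no p-value can be given, and an effect of PRSS35 and a chance difference of the cultures cannot be told apart.

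Proteins bound for the ER are recognised by the signal recognition particle (SRP), handed to its receptor and threaded through the SEC61 channel, where the TRAP complex assists. The signal peptidase then removes the signal peptide, and the oligosaccharyltransferase (OST) moves a ready-made glycan from the lipid dolichol to asparagine residues. Glucosidases trim this glycan while the protein folds. Hepatocytes, which make most plasma proteins, are rich in this machinery.

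PRSS35 itself (chromosome 6, 84222194 to 84235421) stood at 0.643 FPKM in the EV library and at 1836 in the PRSS35 library, as their labels say. Of 12 hepatocyte markers 11 had a mean of at least 1 FPKM, with HNF4A at 41.2 in EV and 47.7 in PRSS35, but ALB, the albumin gene, was at only 4.05 and 5.21, and FGB was below 1. The sum of these markers was 3463 FPKM in EV and 5240 in PRSS35, most of it SERPINA1. PTPRC, CD3E, KDR, DCN and LUM were at 0 in both libraries, and of the 15 leukocyte, endothelial and stromal markers only CD68 and PDGFRB reached a mean of 1 FPKM. The values of CD68, 297.3 and 277.9, belong to a locus joined with MPDU1 in both libraries and are not those of CD68 alone. The part of these marker levels in the results was not tested. The FPKM worth of 1 fragment, read from the Cufflinks bounds at 624 loci, had a median ratio of 1.00 between the libraries, so they were about equally deep. The total depth is not known from the files. In bulk RNA, fewer cells with a transcript and less of it per cell cannot be told apart.

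The 4 promoter stretches printed here carry elements of the unfolded protein response, the pathway that adjusts ER capacity, or the start region that a pair of members shares. They come from RefSeq on GRCh38.p14, where 35 of the 40 members have at least 1 promoter and 48 promoters in all, each reaching from 250 bases before to 50 after the start. Each stretch is written 5′ to 3′ on the strand of its gene, and capitals mark the motif. In ALG12 (chr22:49918494-49918632, minus strand) they mark the ER stress response element, CCAAT and CCACG with 9 bases between. In SEC62 (chr3:169966730-169966806, plus strand) and SRP19 (chr5:112861115-112861242, plus strand) they mark TGACGTGG, the core of the unfolded protein response element, read on the other strand. In SEC61B (chr9:99222032-99222281, plus strand) they mark a CCAAT box on the other strand.
ALG12: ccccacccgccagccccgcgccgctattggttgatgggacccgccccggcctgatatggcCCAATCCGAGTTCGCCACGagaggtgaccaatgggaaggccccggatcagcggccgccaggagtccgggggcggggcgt
SEC62: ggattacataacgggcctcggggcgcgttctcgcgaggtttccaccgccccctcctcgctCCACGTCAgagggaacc
SRP19: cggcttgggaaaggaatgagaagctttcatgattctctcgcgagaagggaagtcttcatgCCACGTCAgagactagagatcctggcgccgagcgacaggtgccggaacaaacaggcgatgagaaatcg
SEC61B: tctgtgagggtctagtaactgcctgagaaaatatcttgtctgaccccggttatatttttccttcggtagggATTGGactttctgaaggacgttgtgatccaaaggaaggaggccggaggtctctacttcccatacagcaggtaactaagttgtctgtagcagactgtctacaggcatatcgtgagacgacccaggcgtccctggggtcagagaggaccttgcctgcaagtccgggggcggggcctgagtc

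The ER stress response element was found, on either strand, in 1 of the 48 member promoters (2.08%), that of ALG12, against 0.0769% of 35116 promoters. Shares of all promoters refer to these 35116, which leave out 1 chromosome on which no member lies. A shorter form, ATTGG and CCACG with 1 base between, was in 0 of the 48 and in 0.0541% of all. TGACGTGG was in 4 of the 48 (8.33%), those of SEC62, SRP19, SSR3 and SSR4, against 0.729% of all. CCAAT, which is also part of the longer element, was in 24 of the 48 (50%) against 34.6% of all. A match describes these windows and is no evidence of a bound factor. The 5 members with one of the long motifs had log2 changes in both directions: 0.09 for ALG12, -0.10 for SEC62, 0.01 for SRP19, 0.34 for SSR3 and -0.29 for SSR4.

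No member reached a 2-fold difference with 1 FPKM added to each value, although the plain ratio of SEC63 was 2.004. The log2 change compares FPKM + 1 in PRSS35 with FPKM + 1 in EV, which makes the change of low genes look smaller than it is, and the error after ± combines the Cufflinks bounds of both libraries. Those bounds describe the estimated error within each library and not how much cultures vary. Over all tested genes, 2.73% were higher and 2.48% were lower by 2-fold, and the members are few for so rare a call. At 1.5-fold 2 members were higher, SEC63 and SPCS2 (5.13% of the members against 5.23% of all tested genes), and 0 were lower (4.27% of all). SPCS2 was under 1.5-fold with centring (log2 change 0.53), upper quartile scaling (0.53) or 5 FPKM added (0.54). Of the 39 members 29 had a log2 change above 0 (74.4%), against 60.2% of all tested genes, and the median change was 0.11 against 0.06.

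With FPKM centred on the median change of all genes, 25 of 39 members were above 0 (64.1%, against 49.99% of all tested genes), and with upper quartile scaling 24 (61.5%, against 50.2%). For 19 members the Cufflinks intervals lay apart. The PRSS35 interval was the higher one for 14 of them (35.9%, against 25.2% of all tested genes) and the lower one for 5 (12.8%, against 15.5%). Narrow intervals lie apart more readily than wide ones. The median error of the log2 change was 0.109 for the members and 0.145 for all tested genes, so these shares are not on an equal footing. The count of 14 was 9 with upper quartile scaling, for which the share of all tested genes was not computed. Without the members whose annotated transcripts share sequence or exons with other genes, it was 8 of the 27 left, beside the 25.2% of all tested genes. With FPKM scaled to its sum over all loci the median of all genes was 0.64, and SEC62, SSR2, SSR4, SEC11A, SRP9, SRP72, STT3A, ALG1 and ALG3, all below 0 otherwise, were above 0. The 14 were SEC61B, SEC63, SSR1, SSR3, SPCS1, SPCS2, SRP68, SRPR, RPN1, RPN2, DDOST, DPAGT1, ALG2 and UGGT1, and the 5 were SSR4, SRP72, STT3A, ALG1 and ALG3. Members that were lower beyond their bounds thus came from TRAP, SRP, OST and glycan assembly.

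**Figure D1:**
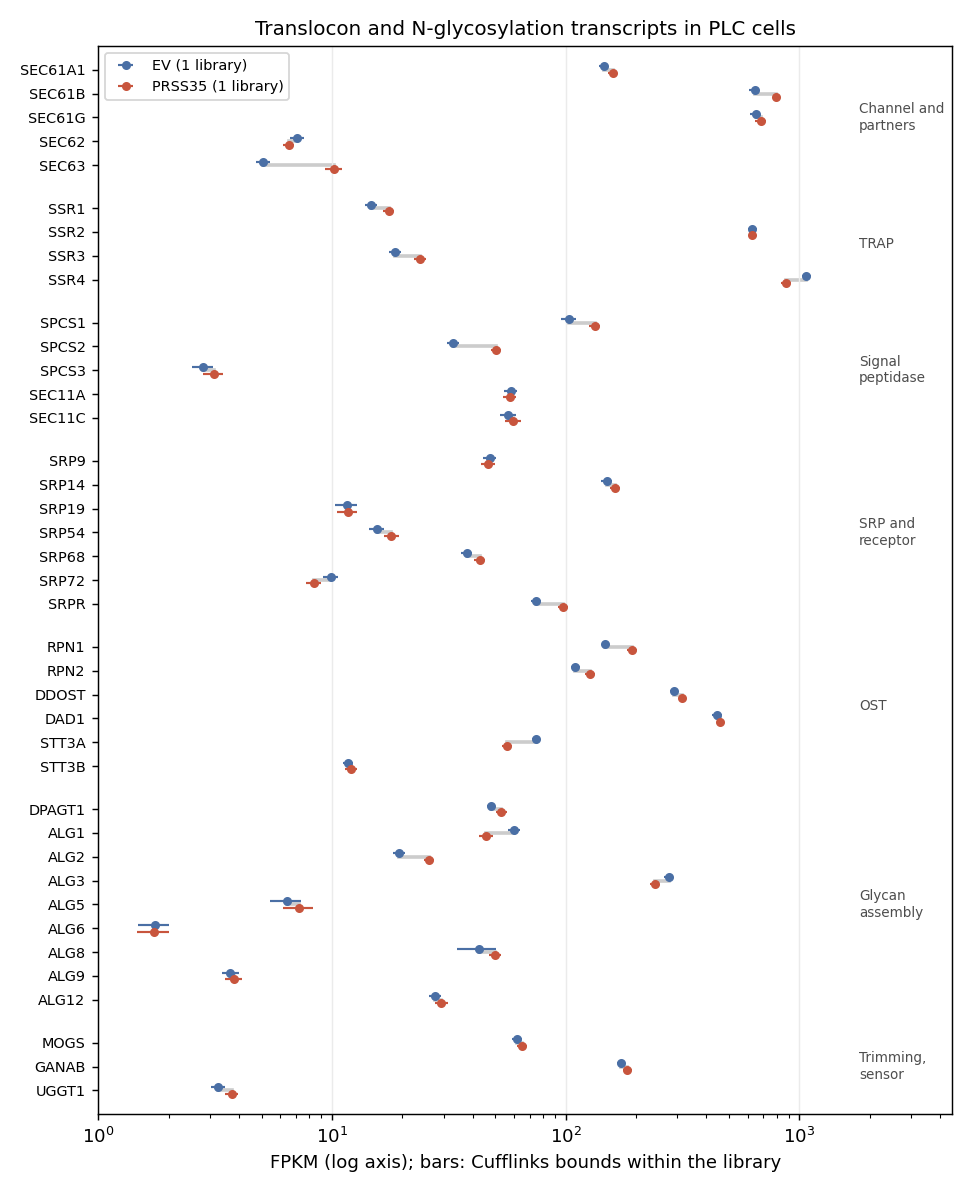
FPKM (log axis) of the 39 members with a mean of at least 1 FPKM, by role, in the EV library (blue) and the PRSS35 library (red), with the Cufflinks bounds as bars and a grey line joining the libraries. Levels run from 1.75 (ALG6) to 1070 (SSR4) in EV, and most pairs of points lie close together, SEC63 and SPCS2 being the widest apart.

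Cufflinks assembled transcripts in each library separately, and a locus assembled from the reads can have other transcript models than an annotated one, so its status is given with the results. Among all tested genes assembled in PRSS35 only, 76.9% had a change above 0 and 14.0% were higher by 1.5-fold. Of those assembled in EV only, 52.1% were above 0 and 12.3% were lower by 1.5-fold. Where neither library assembled the gene, 1.6% were higher and 1.55% were lower. Among the members, 6 were assembled in PRSS35 only, and all 6 had a change above 0. Another 6 were assembled in EV only, with 3 above 0, and 16 were assembled in both libraries, with 11 above 0. The 11 members assembled in neither library had a median change of 0.16, against 0.08 for the 2382 such genes, with 9 above 0, 4 intervals higher and 1 lower. Of the 2382 genes 65.2% were above 0, 23.5% had a higher interval and 6.84% a lower one. Their bounds were wider, with the upper one a median of 10.1% above FPKM in EV, against 7.31% for the 11 members.

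**Figure D2:**
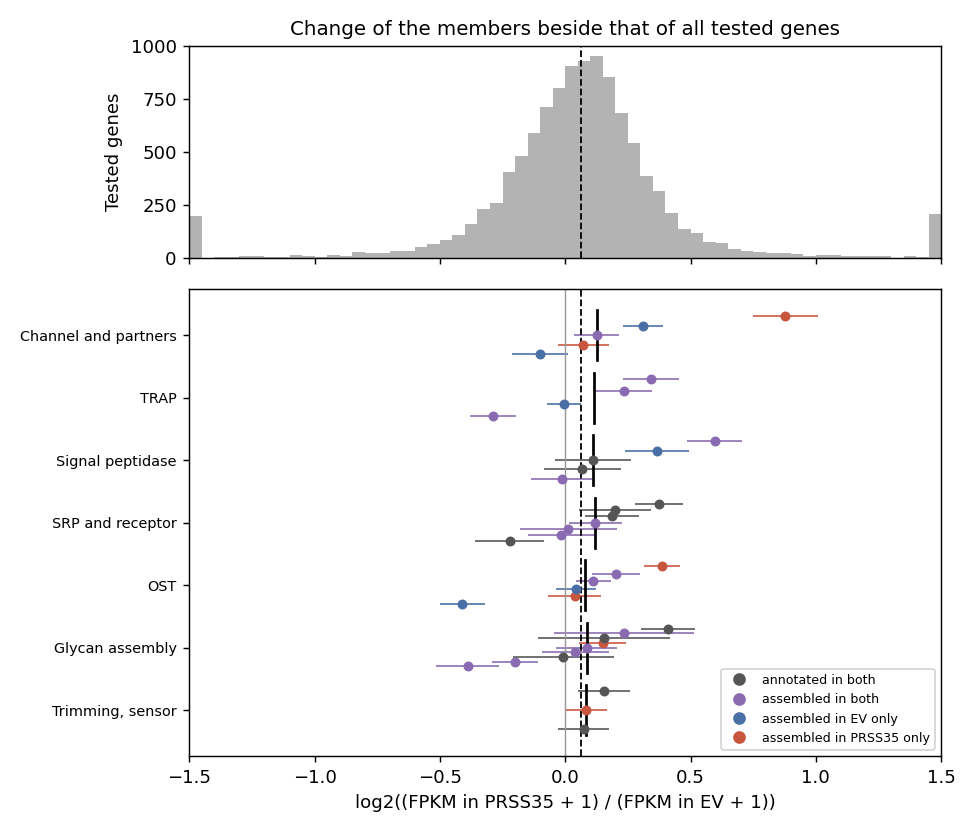
Top, number of tested genes by log2 change in bins of 0.05, with all changes beyond 1.5 in the outermost bins. Bottom, each member by role with its error from the Cufflinks bounds, coloured by the libraries in which its locus was assembled, with black bars for the median of each role and a dashed line for the median of all tested genes (0.06). All medians lie between 0.08 and 0.13, with SEC63 (0.88) farthest to the right and STT3A (-0.41) farthest to the left.

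The channel itself was highly expressed in both libraries. SEC61A1 (chromosome 3, 127771212 to 127790526 of hg19), which forms the pore, had an FPKM of 145.2 in EV and 158.6 in PRSS35, with overlapping intervals (138.8 to 151.7 and 151.6 to 165.6). The small subunit SEC61B was at 642.2 (610.7 to 673.7) in EV and 796.7 (777.5 to 815.9) in PRSS35, a log2 change of 0.31 ± 0.08, and was assembled in EV only. SEC61G, the other small subunit, was at 648.6 and 682.3, with overlapping intervals. Thus the small subunits stood at a similar level, SEC61B at 0.990 times SEC61G in EV and 1.17 times in PRSS35, and SEC61B was 4.42 and 5.02 times as high as SEC61A1. SEC61A2, a second form of the pore subunit, is listed at 0 in both libraries, at a locus assembled in both, and an entry of 0 can be a failed estimate.

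SEC62 and SEC63, which help proteins enter after their synthesis, were far lower than the channel. SEC63, which also brings the chaperone BiP to the channel, lies on chromosome 6 from 108188960 to 108279482 of hg19. Its FPKM was 5.08 (4.75 to 5.40) in EV and 10.2 (9.37 to 10.98) in PRSS35, a log2 change of 0.88 ± 0.13, the largest of all members. This locus was assembled in PRSS35 only, where it ends at 108279545. In addition, 6.83% of the 50-base stretches of its annotated transcript are also found in the pseudogene SEC63P1. When 5 FPKM was added to each value instead of 1, the log2 change of SEC63 was 0.59. SEC62 was at 7.08 (6.60 to 7.56) and 6.53 (6.17 to 6.90), with overlapping intervals, and was assembled in EV only. Relative to SEC61A1, SEC62 stood at 0.0487 in EV and 0.0412 in PRSS35, and SEC63 at 0.0350 and 0.0642.

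SEC61B and ALG2, both higher in PRSS35 cells, are neighbours. On chromosome 9 of hg19 the ALG2 locus ends at 101984246 and the SEC61B locus begins at 101984570, on opposite strands with 323 bases between, the region from which the stretch of SEC61B above was taken. ALG2 was at 19.3 (18.2 to 20.5) in EV and 26.0 (24.7 to 27.4) in PRSS35, a log2 change of 0.41 ± 0.11, and its locus kept its annotation in both libraries.

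The TRAP complex, which aids the entry of proteins with weak signal peptides, had values in both directions. SSR4 (chromosome X, 153059630 to 153063967), the most abundant member, was at 1070 (1023 to 1117) in EV and 876.3 (836.8 to 915.8) in PRSS35, a log2 change of -0.29 ± 0.09. SSR2 hardly differed, at 627.5 and 626.1, with a log2 change of -0.0033 ± 0.07. SSR1 was at 14.7 (13.8 to 15.6) and 17.5 (16.5 to 18.5), and SSR3 at 18.6 (17.5 to 19.7) and 23.8 (22.5 to 25.2). SSR1 and SSR3 were therefore higher beyond their bounds and SSR4 lower, while the summed FPKM of the 4 genes was 0.892 times as high in PRSS35 as in EV and their median log2 change was 0.12. Without SSR2 and SSR3, of whose annotated exonic bases 14.7% and 25.4% lie within other genes, the median was -0.027. SSR1, SSR3 and SSR4 were assembled in both libraries. Although the 4 proteins work in 1 complex, SSR2 stood 42.7 times above SSR1 in EV and 35.8 times in PRSS35.

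In the signal peptidase complex, SPCS2 showed the largest difference. This accessory subunit (chromosome 11, 74660292 to 74690076) had an FPKM of 32.97 (31.1 to 34.9) in EV and 50.4 (47.7 to 53.0) in PRSS35, a log2 change of 0.60 ± 0.11. It was assembled in both libraries, and 19.2% of the 50-base stretches of its annotated transcript are shared with the pseudogene SPCS2P4. SPCS1, which has a role in the choice of substrates, was at 103.0 (95.6 to 110.4) and 133.2 (126.0 to 140.4), a log2 change of 0.37 ± 0.13, and was assembled in EV only. The annotated exons of SPCS1 lie to 71.4% within those of other genes, NEK4 among them, on the opposite strand. That annotation runs from 52738971 to 52745164 of chromosome 3, but the deposited locus only from 52739857 to 52742197. The overlap within the deposited locus was not computed. SPCS3, which is needed for cleavage, was low, at 2.81 and 3.11, with overlapping intervals.

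The catalytic subunits SEC11A and SEC11C, which take each other's place in separate complexes, were about equal to one another. SEC11A was at 58.1 (54.5 to 61.6) in EV and 57.5 (54.0 to 61.0) in PRSS35, and SEC11C at 56.8 (52.4 to 61.1) and 59.6 (55.1 to 64.1). Their ratio was 1.02 in EV and 0.965 in PRSS35, and for neither gene did the intervals of the libraries separate.

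Among the SRP genes, the receptor subunit SRPR (chromosome 11, 126132814 to 126138877), which docks the particle at the ER, differed most. It was at 74.9 (71.3 to 78.5) in EV and 97.5 (93.0 to 102.1) in PRSS35, a log2 change of 0.38 ± 0.10, at a locus annotated in both libraries. SRP68 and SRP72 form a pair on the SRP RNA, and their values lay in opposite directions. SRP68 was at 37.7 (35.6 to 39.7) and 43.0 (40.6 to 45.3), while SRP72 was at 9.91 (9.18 to 10.6) and 8.36 (7.71 to 9.01), and both kept their annotation in both libraries. SRP54, the subunit that binds signal peptides, was at 15.5 (14.3 to 16.7) and 17.9 (16.6 to 19.3), with intervals that overlapped narrowly.

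The remaining subunits had overlapping intervals. SRP9 and SRP14, which pause translation as a dimer, were at 47.3 and 46.7 and at 149.8 and 163.0, respectively, so that SRP14 stood 3.17 times above SRP9 in EV and 3.49 times in PRSS35. SRP9 shares 14.8% of its 50-base stretches with the pseudogene SRP9P1. SRP19, which helps SRP54 onto the RNA, was at 11.5 in EV and 11.7 in PRSS35.

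The OST showed its largest difference in a catalytic subunit. STT3A (chromosome 11, 125462690 to 125493810), which glycosylates proteins as they enter the ER, was at 74.8 (71.8 to 77.8) in EV and 56.0 (53.4 to 58.7) in PRSS35, a log2 change of -0.41 ± 0.09, the lowest of all members. It was assembled in EV only, where the locus reaches farther than the annotated one in PRSS35, which ends at 125492654. STT3B, which acts on sites that STT3A has missed, was at 11.7 (11.2 to 12.3) and 12.1 (11.3 to 12.8), with overlapping intervals, and was assembled in PRSS35 only. As a result STT3A stood 6.37 times above STT3B in EV and 4.64 times in PRSS35.

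Of 4 further subunits of the enzyme, 3 had separate intervals, higher in PRSS35 (25.2% of all tested genes had a higher interval). With upper quartile scaling the log2 changes of these 3 were 0.32 for RPN1, 0.13 for RPN2 and only 0.04 for DDOST. RPN1 (chromosome 3, 128338813 to 128369719), which holds substrates near the catalytic site, was at 146.9 (143.8 to 149.9) in EV and 192.2 (183.6 to 200.9) in PRSS35, a log2 change of 0.39 ± 0.07, and was assembled in PRSS35 only. RPN2 was at 110.0 (104.8 to 115.2) and 126.8 (121.0 to 132.7), and its intervals too lay apart. DDOST was at 290.4 (280.4 to 300.5) and 314.1 (303.7 to 324.6), at a locus joined with PINK1-AS in both libraries, so that its value covers both names. DAD1 differed by less than its bounds, at 442.8 and 456.7, and its change was below 0 with centring or upper quartile scaling. Of the 6 other OST subunits in the pathway lists, 4 had a change above 0 and 2 below (60.2% of all tested genes were above 0).

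The enzymes that build the dolichol-linked glycan had values in both directions. DPAGT1, which starts the chain, was at 47.7 (45.9 to 49.5) in EV and 53.0 (50.1 to 55.9) in PRSS35. ALG1 (chromosome 16, 5121810 to 5137380), which adds the first mannose, was lower, at 60.1 (56.7 to 63.6) and 45.7 (42.6 to 48.8), a log2 change of -0.39 ± 0.13. The next enzyme, ALG2, was higher, as given above. ALG3 (chromosome 3, 183960117 to 183967313), which adds the first mannose inside the ER, was lower again, at 275.9 (263.3 to 288.4) and 239.9 (228.9 to 251.0), a log2 change of -0.20 ± 0.09. ALG1 and ALG3 were assembled in both libraries, and 19.2% of the 50-base stretches of the ALG1 transcript are found in other genes elsewhere.

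The later steps differed by less than their bounds. The mannosyltransferase ALG9 was at 3.68 in EV and 3.81 in PRSS35, and ALG12, the next in order, at 27.6 and 29.4. Of the annotated exonic bases of ALG12, 42.3% lie within those of other genes on the opposite strand, CRELD2 among them. That annotation begins at 50293877 of chromosome 22, but the deposited locus at 50296854. ALG5, which charges dolichol with glucose, was at 6.39 and 7.24. The glucosyltransferases ALG6 and ALG8 were at 1.75 and 1.73 and at 42.4 and 50.01, and the EV interval of ALG8, 34.3 to 50.4, was the widest of any member for its level. Levels along the chain were thus very unequal, with ALG3 158.0 times above ALG6 in EV and 138.4 times in PRSS35.

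The trimming enzymes and the folding sensor had small positive changes. Glucosidase I, encoded by MOGS, was at 61.7 (58.6 to 64.8) in EV and 65.0 (61.8 to 68.2) in PRSS35, and GANAB, the catalytic subunit of glucosidase II, at 173.1 (166.3 to 179.9) and 183.5 (175.6 to 191.5), both with overlapping intervals. UGGT1, which puts glucose back on unfolded glycoproteins, was low, at 3.25 (3.02 to 3.47) and 3.73 (3.497 to 3.96), a log2 change of 0.16 ± 0.10, with intervals that lay narrowly apart.

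The order of the members hardly differed between the libraries (Spearman's rho 0.99 across 39 genes, which are not independent replicates). Levels went with features of the annotated transcript that the list did not use. Across the 39 members, rho between mean FPKM and the length of the canonical transcript was -0.65, and between mean FPKM and its GC content 0.62. Over the 10642 tested genes with a matched transcript these were -0.39 and 0.39. The 13 members with at least 100 FPKM had a median length of 1552 bases and a median GC content of 50.2%, and the 12 under 20 FPKM had 4338 bases and 40.3%. The subunits of TRAP lay at both ends, with SSR4 at 608 bases and 59.0% GC and SSR1 at 9661 bases and 40.6%. The log2 change of the members had a rho of only 0.08 with length and -0.06 with GC content. Whether length and GC content took part in the unequal levels was not tested.

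**Figure D3:**
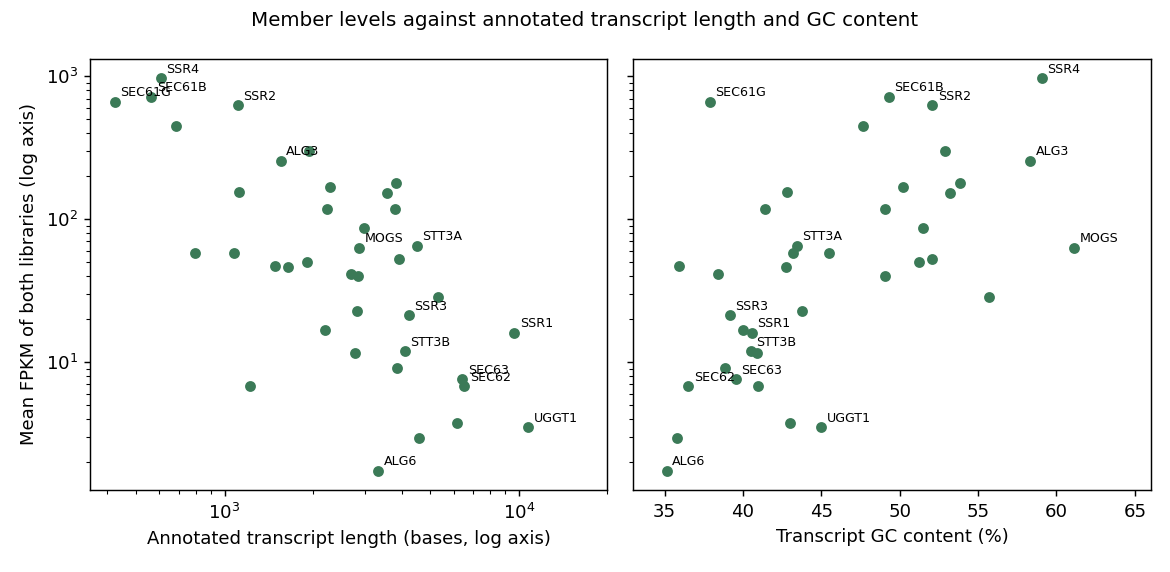
Mean FPKM of both libraries (log axis) of the 39 members against the length of the canonical transcript (left, log axis) and its GC content in percent (right), one point per gene, with some genes named. Long transcripts of low GC content, such as SEC62, SEC63 and ALG6, lie low, and short ones, such as SSR4 and SEC61B, lie high.

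Other genes of the pathway were taken from lists of 85 names, of which 80 had a mean of at least 1 FPKM. By 2-fold, 4 of the 80 were higher, against 2.73% of all tested genes. These 4 include EMC8 with its 0 in EV and TMEM258, whose locus joins other genes in PRSS35 than in EV. The intervals of the 4 did not all lie apart, so the count is no measure of the pathway. None was lower, against 2.48% of all. A change above 0 was found for 52 of the 80, against 60.2% of all tested genes. Their median log2 change was 0.07, against 0.06 for all tested genes. The partners of the translocon had a median of 0.15 (13 of 19 above 0), the other OST subunits 0.19 (4 of 6), the enzymes of dolichol and sugar donors 0.08 (16 of 24), and the trimming and disposal enzymes 0.18 (10 of 14). Among those with the largest changes, EMC8, a subunit of an ER insertase, is listed at 0 in EV, where its locus was assembled, and at 37.4 in PRSS35.

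ALG13, which adds the second sugar of the glycan with ALG14, was at 2.61 (2.22 to 3.01) in EV and 8.31 (6.54 to 10.1) in PRSS35. TMEM258, an OST subunit, was at 1277 and 2911, at a locus that in PRSS35 is also joined with FTH1, the ferritin heavy chain, so that the values do not cover the same genes. DHDDS, which makes the dolichol chain, was at 12.4 (11.6 to 13.3) and 24.1 (22.0 to 26.1), assembled in both libraries.

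Of 2 other groups of the secretory pathway, both had a higher median than the members. The pathway lists above share 6 genes with the first of these groups, the ER chaperones, and 0 with the second. The ER chaperones and unfolded protein response genes, of which 24 were tested, had a median log2 change of 0.24, with 23 above 0 and 15 with a higher interval in PRSS35 and 0 with a lower one. The COPI and COPII vesicle genes, of which 27 were tested, had a median of 0.16, with 22 above 0, 13 higher and 1 lower. Over all tested genes, 60.2% were above 0, 25.2% had a higher interval and 15.5% a lower one. Intervals in both lists were narrower than those of all tested genes. The median error of the log2 change was 0.106 in the first list and 0.103 in the second, against 0.145. The difference between these lists was not tested. Of the genes tested, 0 in either list and 0 of the members differed by 2-fold (2.73% of all tested genes were higher and 2.48% lower).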

How the data were processed

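PLC cell RNA, 1 library for each condition, was sequenced on an Illumina instrument. The authors aligned reads to hg19 with TopHat2 2.1.0, and levels were estimated with the Cufflinks suite, for which the submitters' processing notes give Cuffdiff 2.2.1. The deposited FPKM of each locus and its Cufflinks bounds, taken as 95% bounds, were used as they stand. The annotation release and the strand setting are not given in the sources used here. FPKM was summed over loci of a name, and a joined locus counted for each of its names. A locus marked as failed was left out (1 in each library). The bounds of summed loci were combined as root sums of squares. A mean of 1 FPKM was the filter, 1 FPKM the pseudocount, and 2-fold the threshold. At annotated loci the bounds implied 167 to 16188 fragments for the members. These are not counts, and no model was fitted.

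Members and lists were chosen with earlier results of these data known. All members are named, and of the pathway lists the 5 largest changes of at least 1.5-fold in each direction, except an item that is not reported here. EV and PRSS35 groups follow the labels. Canonical transcripts, exons and 50-base stretches came from GENCODE v44lift37 (GRCh37, the assembly of hg19), and promoters from RefSeq on GRCh38.p14. Protein sequences were not used here. The 2-fold calls were checked on simulated data, with changes larger than 2-fold and no error but that within a library. This check cannot tell how much cultures vary. The tools were pandas 2.3.3, numpy 2.4.6 and scipy 1.17.1 under Python 3.11.15, with matplotlib 3.10.9 for plots. Alternatives were other pseudocounts, scalings, filters, thresholds and locus choices.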

Additional observations from a re-analysis of the deposited data

How the results depend on the processing

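Scaling each FPKM to the library's total over all loci moved the median log2 change of all tested genes from 0.06 to 0.64. The total was 2469030 in EV and 1508530 in PRSS35. Over loci with a gene name it was 856880 in EV and 831520 in PRSS35, so most of the gap lay in unnamed loci. With this scaling the members' median was 0.77, and 38 of the 38 tested were above 0 (96.2% of all tested genes). By 2-fold 7 were higher (9.04% of all), and 38 intervals were higher and 0 lower. The share of all tested genes with separate intervals was not computed for this scaling. Medians by role were 0.83 for the channel, 0.78 for TRAP, 0.76 for signal peptidase, 0.82 for SRP and receptor, 0.79 for OST, 0.72 for glycan assembly and 0.76 for trimming. Upper quartile scaling left 9 intervals higher, again without a computed share of all tested genes. Centring turned the sign of SRP19, DAD1, STT3B and ALG9, and upper quartile scaling also that of SEC11C. Among the 11 members annotated in both libraries 9 were above 0, with 4 intervals higher and 1 lower, since fewer genes were tested. Of all 2382 genes annotated in both, 65.2% were above 0, 23.5% had a higher interval and 6.84% a lower one. At 1.5-fold 2 members were higher (5.13%, against 5.23% of all tested genes). A further setting, chosen after seeing the data, left out 12 members. Of the canonical transcript of each, at least 10% of exonic bases lie in another gene or at least 5% of 50-base stretches are found elsewhere. For SPCS1 that transcript reaches beyond the deposited locus. Of the 27 left, 8 had a higher interval (25.2% of all tested genes), and the TRAP median was -0.027. The members' median was 0.11 there, and between 0.04 and 0.16 in the settings other than the sum. No paired analysis was possible because EV and PRSS35 have only 1 library each. Low genes are limited by depth: at ALG6 the bounds implied about 167 fragments in each library.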

Other observations

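A pair of other routes into the ER membrane were read out in the same libraries. Of the 10 tested genes of the ER membrane complex, an insertase for proteins with several membrane spans, 5 had a log2 change above 0 and 5 below, with a median of -0.02, and 2 intervals were higher and 0 lower in PRSS35. Without EMC8, which is listed at 0 in EV, the other 9 lay between -0.18 and 0.23. Of the 7 genes of the tail-anchor insertion route, 4 were above 0, with a median of 0.01, and 1 interval was higher and 3 were lower. None of these 7 differed by 1.5-fold (5.23% of all tested genes were higher and 4.27% lower). The shares over all tested genes were 60.2% above 0, 25.2% with a higher interval and 15.5% with a lower one.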
